A study of Mus musculus with 55 samples.

Results

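Kupffer cells are the macrophages that reside in the sinusoids of the liver, and here Kupffer cells (KC) sorted from mouse liver after partial hepatectomy (PH, surgical removal of part of the liver) were compared with those sorted from normal liver across all genes. The comparison used 5 of the 55 libraries of the series, 2 from normal liver and 3 after PH, taken by their titles and treatment labels. The other libraries came from 9 further sorted liver populations. All mice were of the strain C57B/L6, and no transgene, other agent, age, or time after surgery is stated for either KC group. Sorting was by FACS, with collection in TRIzol, and Illumina sequencing followed. No label says whether the replicates came from separate animals, so the p-values below measure only the spread between these samples, which may be technical. Levels are FPKM, fragments per kilobase of transcript scaled to the mapped total, and changes are differences of log2(FPKM + 1), PH minus normal, which understate the change of low genes.

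As background, Kupffer cells take up particles, dying cells and microbial products from portal blood through scavenger, complement and Fc receptors, and they recycle the iron and heme of red cells. They sense microbial products through Toll-like receptors, which act through NF-kB to induce cytokines such as TNF and IL-6. In the classical account of liver regeneration, these cytokines prime hepatocytes to enter the cell cycle. Kupffer cells can also renew themselves by dividing in place.

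The sort carried the defining markers of Kupffer cells in all 5 libraries. Clec4f, a C-type lectin used to define mouse Kupffer cells, was at 4312 and 3499.6 FPKM in the normal libraries and 4294, 4549 and 5143 FPKM after PH. Of 14 lymphocyte markers 13 were too low to be tested, the exception being Cd79b, a B cell receptor subunit, at 27.8 and 22.1 FPKM before and 16.5, 18.9 and 15.7 FPKM after PH, and 6 of 12 neutrophil markers were also too low. Stellate cell and fibroblast markers summed over 10 genes to 597 and 240 FPKM in the normal libraries and 222, 187 and 236 FPKM after PH, and none of the 10 passed. Their highest members were Ecm1, an extracellular matrix protein, at 248 and 156 FPKM before and 71.5, 59.5 and 159 FPKM after PH, and Dcn, the proteoglycan decorin, at 218 and 42 FPKM before and 98, 83.8 and 50.2 FPKM after PH, with normal library 1 the highest in both. Hepatocyte markers were listed at exactly 0 in all 5 libraries for 10 of 10 genes, albumin included. Genes abundant in hepatocytes are often listed at 0 in the other sorts of this table, so genes with a mean of at least 10 FPKM in a hepatocyte group are marked below as hepatocyte-abundant. Summed FPKM lay between 770745 and 846248, and the read depth behind each value is unknown.

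Sinusoidal endothelial RNA differed between the KC groups. All 10 of 10 markers of liver sinusoidal endothelial cells (LSEC) fell, where 20.1% of all genes tested did. Kdr, the main VEGF receptor of endothelium, was at 358 and 483 FPKM in the normal libraries and 11.5, 7.99 and 20.7 FPKM after PH. Across the 10 markers the KC level was a median of 38.5% of that in the LSEC sort in normal liver and 4.81% after PH, and each marker was lower in every PH library than in either normal library. Of 10 vascular endothelial markers 8 fell, a count that was 4 without normal library 1 and 4 without normal library 2. For this reason genes are separated below into those whose KC level (the mean of the 2 group means) lay above both normal endothelial sorts, LSEC and EC (a second endothelial sort), and those for which it did not. In bulk RNA, fewer cells of a type and less RNA per cell cannot be told apart.

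**Figure D1:**
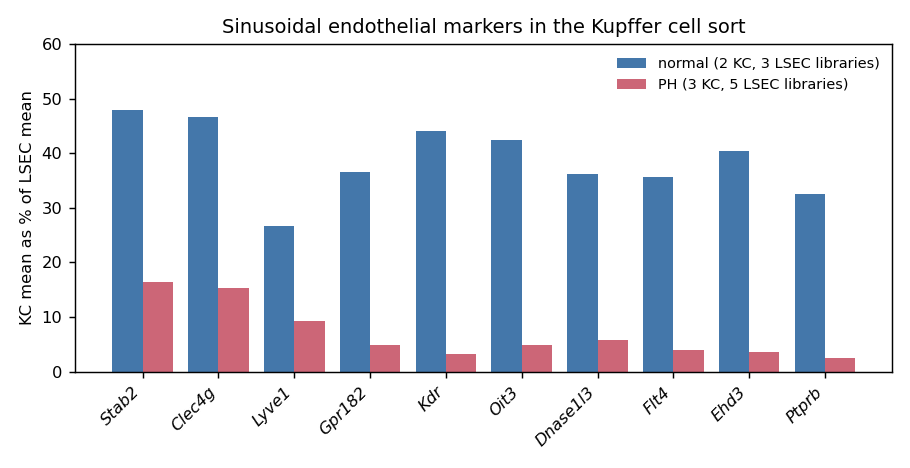
Mean FPKM of 10 LSEC markers in the KC sort as a percentage of their mean in the LSEC sort of the same condition (y axis), for normal liver (blue bars) and after PH (red bars). The normal bars lie near the median of 38.5% and the PH bars near the median of 4.81%, with Stab2 and Clec4g the highest after PH.

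PH library 3 stood apart from PH libraries 1 and 2. The median absolute log2 ratio over genes at 50 FPKM or more was 0.0788 between PH libraries 1 and 2, the smallest of 57 replicate pairs in the series, against 0.244 and 0.257 between library 3 and each of these. The normal libraries differed by 0.135. The commonest ratio between the low values of 2 libraries held for 3.48 to 7.19% of low transcripts between any of the other 4 KC libraries but for 0.562 to 0.767% in comparisons that include library 3. The label of library 3 also lacks the cell type entry that the other 4 carry. Read counts were not used here, so whether PH libraries 1 and 2 differ by more than sampling noise was not tested. Results are therefore also given without library 3 or with libraries 1 and 2 averaged where that matters. Library 3 had also been set apart beforehand because its cell cycle genes differ. For cell cycle genes, results without library 3 thus rest on the values used to set it apart and are no independent test.

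Among 11835 genes tested, 4350 (36.8%) passed the threshold of adjusted p under 0.05, with 1975 higher (16.7%) and 2375 lower (20.1%) after PH, by limma with Benjamini-Hochberg adjustment. PH and normal libraries did not overlap for 7529 genes (63.6%). Genes above both endothelial sorts that passed were more often higher than lower: of 5443 such genes, 1786 were higher (32.8%) and 260 lower (4.78%), with a median change of 0.42. The reverse held for the others: of 6392, 189 were higher (2.96%) and 2115 lower (33.1%), with a median change of -0.38.

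**Figure D2:**
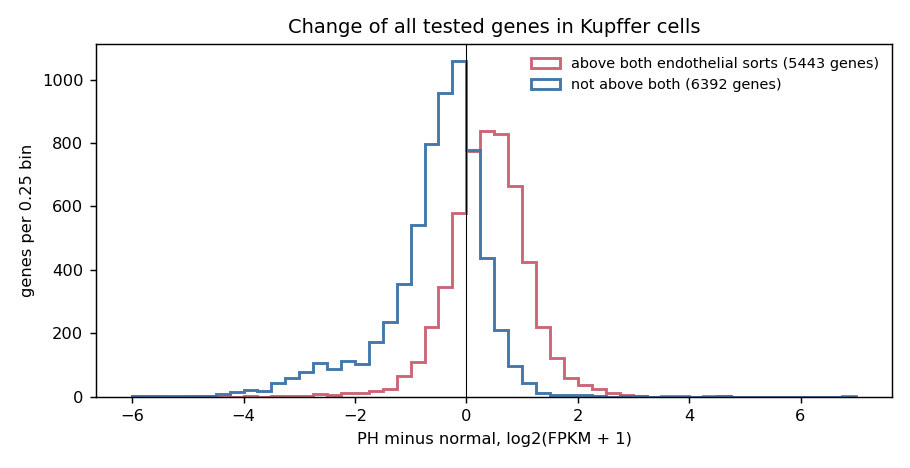
Number of genes per bin of 0.25 (y axis) against the change on the log2(FPKM + 1) scale (x axis), for 5443 genes above both endothelial sorts in KC (red) and 6392 others (blue). The red distribution is centred at 0.42 and the blue one at -0.38 with a long tail to the left.

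The count depended on single libraries and on the scale. It was 1481 without normal library 1, 1471 without normal library 2, 2437 without PH library 1, 2782 without PH library 2 and 6890 without PH library 3, and leaving out a normal library leaves 1 library that is assumed to vary like the others. With PH libraries 1 and 2 averaged into 1 sample it was 2665. Under quantile normalization 2533 genes were higher and 2018 lower. Upper-quartile scaling over the genes above both endothelial sorts moved their median change from 0.42 to 0.04 and left 658 of them higher and 573 lower. Rises near 0.42 in this class therefore lie at the class median. The class is chosen with the KC values of both groups, so a large fall can itself place a gene outside it and a large rise inside it. Choosing it by the normal KC mean alone, in a fit of these genes only, gave 953 higher and 366 lower of 4585 genes. That choice can in turn favour falls. Falls are given by both choices for the immediate early, interferon, cytokine, transcription factor and G1 lists. Rises are given by both for the identity, scavenger, lipid, lysosome, iron, chaperone, cytokine and S phase lists. Of 4192 hepatocyte-abundant genes, 1293 were higher (30.8%) and 511 lower (12.2%). Of 7643 genes low in hepatocytes, 682 were higher (8.92%) and 1864 lower (24.4%). The difference between these shares was not tested. Across 5215 genes, the change had a Spearman correlation of -0.328 with transcript length (-0.288 over 3095 genes above both endothelial sorts), and the difference of the 2 normal libraries had one of -0.118. These genes share the libraries and the part of length in the changes was not tested.

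The largest rise among genes low in hepatocytes was that of Marco (RefSeq NM_010766, chr1:122371115-122401661 in mm9, minus strand), a scavenger receptor of resident macrophages that binds bacteria and particles. Its level was 338 and 338 FPKM in the normal libraries and 6906, 6794 and 7840.5 FPKM after PH. Both groups were tight and lay 21.2-fold apart by their means, a change of 4.40 (SE 0.11, adjusted p = 0.000239). The change was 4.34 without library 3. Trem2, a lipid-sensing receptor of macrophages, was at 31.4 and 22.1 FPKM in the normal libraries and 192, 184 and 285 FPKM after PH, a change of 2.98 (SE 0.25, adjusted p = 0.00161). Ccl6, a CC chemokine made by myeloid cells, was at 437 and 464 FPKM in the normal libraries and 2219, 2251 and 3112 FPKM after PH, a change of 2.47 (SE 0.18, adjusted p = 0.00139). In each of these genes all PH libraries lay above both normal libraries, and library 3 was the highest.

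Other large rises came from lower levels. Mmp12, macrophage elastase, was at 4.57 and 3.15 FPKM before and 15.9, 18.6 and 79.9 FPKM after PH, a change of 2.64 (SE 0.70, adjusted p = 0.0355), and library 3 was far above the other PH libraries. Havcr2, the inhibitory receptor TIM-3, was at 3.18 and 1.08 FPKM before and 11.1, 11.8 and 17.8 FPKM after PH, a change of 2.27 (SE 0.36, adjusted p = 0.00769). The remaining 7 of the 12 largest rises were Psat1 (serine synthesis), Ctps (CTP synthesis), Dnph1 (nucleotide hydrolysis), Gins1 and Mcm2 (replicative helicase), Nup43 (nuclear pore) and Cdca7 (a Myc target that acts on chromatin), with changes from 2.31 to 2.92. In all 7, library 3 was below libraries 1 and 2. The gap was wide for Psat1, at 1.21 and 1.75 FPKM before and 24.5, 23.1 and 4.16 FPKM after PH, and narrow for Ctps, at 3.52 and 3.26 FPKM before and 23.8, 26.1 and 19.2 FPKM after PH. Without normal library 1 or without normal library 2, Mmp12, Psat1, Gins1, Mcm2, Cdca7, Dnph1 and Nup43 no longer passed (adjusted p from 0.0601 to 0.22), and without normal library 2 Havcr2 had an adjusted p of 0.0522. Without PH library 1 or 2, Psat1 (0.105 and 0.104) and Gins1 (0.085 and 0.0872) did not pass, nor did Mmp12 without PH library 2 (0.0518).

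The largest fall among genes low in hepatocytes was that of Fosb, a subunit of the AP-1 transcription factor induced within minutes of a stimulus (NM_008036, chr7:19888045-19895394 in mm9, minus strand), which stood at 164 and 115 FPKM in the normal libraries and 2.54, 1.42 and 4.32 FPKM after PH, a change of -5.27 (SE 0.36, adjusted p = 0.00139). Its level in normal LSEC was 108 FPKM and in LSEC after PH 72.1 FPKM. By the normal KC mean, 4 of the 12 largest falls were in genes above both endothelial sorts: Fosb, Hspa1a, Hspa1b and Alox15. The other 8 were Ltbp4, Kdr, Cyp4b1, Itga8, Oit3, Robo4, F8 (coagulation factor VIII) and Hspg2 (perlecan). Alox15, a lipoxygenase known from resident macrophages of body cavities and from eosinophils, was at 20.5 and 92.1 FPKM before and 0.398, 0.0529 and 3.77 FPKM after PH, a change of -4.55 (SE 0.87, adjusted p = 0.0132), while LSEC held 0.253 FPKM. Its normal libraries were unequal, and without normal library 2 its adjusted p was 0.0959. Hspg2 then had one of 0.0551.

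**Figure D3:**
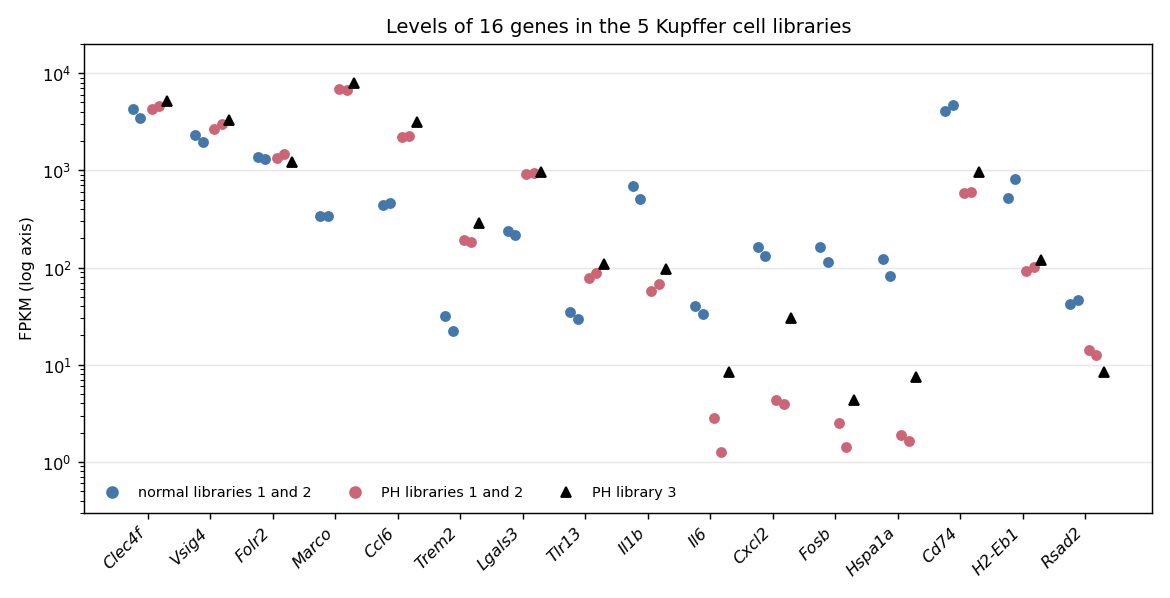
FPKM on a log axis (y axis) of 16 genes in the 5 KC libraries: normal libraries 1 and 2 (blue), PH libraries 1 and 2 (red) and PH library 3 (black triangles). Marco, Ccl6, Trem2, Lgals3 and Tlr13 lie higher in the 3 PH libraries, Clec4f and Folr2 lie near even, and the genes from Il1b to Rsad2 lie lower.

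Of 14 Kupffer cell identity genes tested, 5 rose, 1 fell and 8 did not pass, with a median change of 0.45. The 5 rises were among the 13 above both endothelial sorts, where 32.8% of all genes rose and the median change was 0.42. By the normal KC mean, 13 were above both sorts and 5 of these rose. In a fit of that class alone, where 953 of 4585 genes rose, 4 members rose. Beside Marco, Cd5l, a secreted macrophage protein that binds lipids, rose from 4326 and 4258 FPKM to 12087, 12657 and 9537 FPKM (1.40 (SE 0.15, adjusted p = 0.00251)). It met the hepatocyte-abundant mark only by 13.7 FPKM in hepatocytes after PH, against 0.753 FPKM in normal hepatocytes. Nr1h3, the oxysterol receptor LXR-alpha on which Kupffer cells depend and also hepatocyte-abundant, was at 278 and 218 FPKM before and 633, 686 and 606 FPKM after PH, a change of 1.38 (SE 0.14, adjusted p = 0.00232).

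Vsig4, a complement receptor of resident macrophages, was at 2324 and 1954 FPKM before and 2666, 2973 and 3273 FPKM after PH. Its change of 0.47 (SE 0.14, adjusted p = 0.0469) was at the class median, did not pass when any library except PH library 3 was left out (adjusted p from 0.077 to 0.236), and was -0.02 under quantile normalization. Clec4f changed by 0.26 (SE 0.14, adjusted p = 0.207) and Folr2, a folate receptor of resident macrophages, by 0.00 (SE 0.12, adjusted p = 0.992), neither past the threshold. Timd4, the phosphatidylserine receptor of long-lived Kupffer cells, was at 411 and 383 FPKM before and 539.8, 567 and 472 FPKM after PH, with all PH libraries above both normal ones and an adjusted p of 0.0518. The gene that fell was Id3, a transcriptional regulator required for Kupffer cell development, at 611 and 642 FPKM before and 290.5, 254 and 326 FPKM after PH, and its KC level was not above the endothelial sorts. The identity count of 5 was 3 without normal library 1 and 3 without normal library 2, and 1 in a fit of all 20 groups.

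Of 15 general macrophage markers tested, 3 rose (Cd68, Aif1 and Tyrobp, by 0.49 to 0.67) and Cd14 fell, with a median change of 0.01. All 15 were above both endothelial sorts, a class in which 32.8% of all genes rose and 4.78% fell. Adgre1, which encodes F4/80, was at 698 and 665 FPKM before and 658, 729 and 667 FPKM after PH. The 3 rises became 1 without normal library 1, 0 without normal library 2, 0 without PH library 1 and 1 without PH library 2, and none of the 3 passed under scaling to the class median, under quantile normalization, in a fit of all 20 groups or with PH libraries 1 and 2 averaged. Monocyte markers gave 1 rise, Treml4, and 1 fall, Ms4a4c, among 11, where 16.7% of all genes rose and 20.1% fell. The sum of all 12 monocyte markers ranged from 431 to 529 FPKM in the normal libraries and from 751 to 834 after PH, with Ly6c2 at or below 1.43 FPKM and Ccr2 at or below 8.44 FPKM in every library.

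Among 23 scavenger, efferocytosis and Fc receptor genes, 6 rose (Marco, Cd5l, Colec12, Clec4n, Msr1 and Vsig4) and 3 fell, with a median change of 0.24. The 3 that fell, Fcgr2b (inhibitory Fc receptor, -4.04), Stab1 (stabilin, -2.28) and Mrc1 (mannose receptor, -1.92), are also highly expressed in LSEC and were not above both endothelial sorts by either choice. The 6 rises were among the 19 members above both sorts, a class in which 32.8% of all genes rose, so the count is near its background. By the normal KC mean, 18 members were above both sorts and 5 of these rose. In a fit of that class alone, where 953 of 4585 genes rose, 4 members rose. Msr1, scavenger receptor A, was at 411 and 445 FPKM before and 850.1, 969.7 and 620.2 FPKM after PH, and Clec4n, the lectin Dectin-2, at 172 and 149.6 FPKM before and 296, 351 and 449 FPKM after PH, with PH above normal in every library. The 6 rises became 3 without normal library 1 and 3 without normal library 2, and the falls 8 without PH library 3. Clec4n had an adjusted p of 0.0675 without normal library 1 and 0.0858 without normal library 2.

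Lipid genes included several large rises. Of 19 targets of LXR and lipid-handling genes, 8 rose and 3 fell, with a median change of 0.36. Of the 12 above both endothelial sorts 6 rose, where 32.8% of all such genes did. By the normal KC mean, 10 were above both sorts and 4 of these rose. Of all 4585 genes in a fit of that class alone, 953 rose, among them 4 members. Lgals3, galectin-3, was at 237 and 214 FPKM in the normal libraries and 915, 947 and 957 FPKM after PH, a change of 2.05 (SE 0.10, adjusted p = 0.0012). Lpl, lipoprotein lipase, was at 282 and 346 FPKM in the normal libraries and 942, 947 and 802 FPKM after PH, a change of 1.52 (SE 0.14, adjusted p = 0.00196). Scd2, a stearoyl-CoA desaturase, was at 20.5 and 19.1 FPKM in the normal libraries and 99.5, 94.9 and 89.1 FPKM after PH, a change of 2.20 (SE 0.11, adjusted p = 0.0012), with PH libraries far above normal in all 3 genes. Scd2 was not above both endothelial sorts. Its paralog Scd1, hepatocyte-abundant, was listed at 0 in both normal libraries and at 116, 119 and 103 FPKM after PH. Such genes are often listed at 0 in this table, so the change of Scd1 is uncertain. The falls were Fabp4, Fabp5 and Mylip, and none of them was above both endothelial sorts. Cholesterol synthesis genes gave 1 rise, Dhcr7, and 0 falls among 15 tested. All 15 were hepatocyte-abundant, a class in which 30.8% of all genes rose and 12.2% fell. The 1 rise became 0 without PH library 1, 0 without PH library 2 and 7 without PH library 3. Mylip had an adjusted p of 0.101 without normal library 1 and 0.103 without normal library 2.

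Of 28 lysosomal genes, 10 rose and 2 fell, with a median change of 0.35, and 23 of the 28 were hepatocyte-abundant. All 10 rises were among the 23 members above both endothelial sorts, where 32.8% of all genes rose, and 30.8% of hepatocyte-abundant genes did. By the normal KC mean, 24 members were above both sorts and 10 of these rose. In a fit of that class alone, where 953 of 4585 genes rose, 10 members also rose. Ctsd, the aspartic protease cathepsin D, was at 1622 and 1567 FPKM in the normal libraries and 3683, 3936 and 3796 FPKM after PH, and Ctsz, cathepsin Z, at 393 and 389 FPKM in the normal libraries and 1049, 1051 and 1051 FPKM after PH, changes of 1.25 and 1.42. Library 3 was level with the other PH libraries in both genes. The lysosomal rises became 5 without normal library 1 and 5 without normal library 2, and the falls 0 without normal library 1, 1 without normal library 2, 1 without PH library 1, 1 without PH library 2 and 5 without PH library 3. Of 16 iron and heme genes, 7 rose and 0 fell (limma, also 0 at an unadjusted p under 0.05), with a median change of 0.65, and 11 of the 16 were hepatocyte-abundant. The 7 were among the 15 above both endothelial sorts, to be read against the same shares. By the normal KC mean, 15 were above both sorts and 7 rose, also in the fit of that class alone.

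Hmox1, the heme oxygenase that degrades heme, was at 892 and 737 FPKM in the normal libraries and 1756, 1821 and 8343 FPKM after PH. Its change of 1.88 (SE 0.71, adjusted p = 0.0922) did not pass, library 3 stood far above libraries 1 and 2, and all PH libraries were above both normal ones. Blvra, biliverdin reductase A, which acts after heme oxygenase, was at 82.7 and 85 FPKM in the normal libraries and 209.9, 231 and 195 FPKM after PH, a change of 1.32 (SE 0.12, adjusted p = 0.0017). Slc40a1, the iron exporter ferroportin, was at 1540.3 and 1202 FPKM in the normal libraries and 1709, 1929 and 2617 FPKM after PH, with an adjusted p of 0.0872. The iron and heme rises became 3 without normal library 1, 1 without normal library 2, 3 without PH library 1, 4 without PH library 2 and 11 without PH library 3.

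Immediate early genes, which respond to a stimulus without new protein synthesis, were lower as a group. Of 28 tested, 24 fell and 0 rose, with a median change of -2.41 (limma, with 0 rises at an unadjusted p under 0.05). PH and normal libraries did not overlap for 26 of the 28, against 63.6% of all genes tested, and 20.1% of all genes fell. Fos, the partner of Jun in AP-1, was at 793 and 1018 FPKM in the normal libraries and 61.5, 54.9 and 114 FPKM after PH, and Ppp1r15a, a stress-induced phosphatase subunit that restores translation, at 263 and 231 FPKM in the normal libraries and 21.8, 19.3 and 27.7 FPKM after PH, both hepatocyte-abundant. Their changes were -3.61 (SE 0.34, adjusted p = 0.00187) and -3.39 (SE 0.18, adjusted p = 0.0012), and no library overlapped.

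By the normal KC mean, 24 of the 28 were above both endothelial sorts and 21 of these fell, while by the mean of both groups 12 were and 9 of these fell. By the mean of both groups, 4.78% of all genes above both sorts fell. A fit of the class by the normal KC mean alone had 366 of 4585 genes lower, with 20 members. Of the 16 members not above, 15 fell, against 33.1% of all such genes. Members above both sorts by either choice included Nr4a1, an orphan nuclear receptor, at 208 and 153 FPKM before and 23.6, 22.7 and 39.4 FPKM after PH (-2.65 (SE 0.28, adjusted p = 0.00251)), against 21.8 FPKM in normal LSEC. Egr2, a zinc-finger factor of macrophages, was at 19.3 and 17.3 FPKM before and 5.02, 4.95 and 4.56 FPKM after PH (-1.72 (SE 0.15, adjusted p = 0.00161)), against 1.61 FPKM in normal LSEC. Gadd45b, a stress sensor, was at 75.2 and 44.8 FPKM before and 6.01, 6.11 and 10.3 FPKM after PH (-2.84 (SE 0.32, adjusted p = 0.00274)). Myc, a growth regulator, did not pass, at 37.9 and 25.9 FPKM before and 35.7, 32.8 and 44.8 FPKM after PH (0.25 (SE 0.22, adjusted p = 0.411)). The count of 24 was 14 without normal library 1. Klf4, an endothelial and macrophage factor that fell by 3.89, had an adjusted p of 0.0554 without normal library 1 and 0.0624 without normal library 2.

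The promoter of Ppp1r15a is shown because this gene fell with the immediate early list and holds the cAMP response element, the site known to bind CREB. The 300 bases around its start site (RefSeq, GRCm38.p6, chr7:45526219-45526518, minus strand) read as follows, with the match to TGACGTCA in capitals.
Ppp1r15a: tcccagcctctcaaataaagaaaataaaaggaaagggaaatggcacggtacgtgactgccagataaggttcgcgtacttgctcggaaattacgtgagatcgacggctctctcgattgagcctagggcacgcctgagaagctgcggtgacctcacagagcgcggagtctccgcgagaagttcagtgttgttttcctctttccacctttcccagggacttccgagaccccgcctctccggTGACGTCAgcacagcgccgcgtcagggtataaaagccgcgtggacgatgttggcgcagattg
TGACGTCA, searched on both strands, was in the promoters of 4 of 25 immediate early genes with a promoter in the table (Btg2, Dusp1, Maff and Ppp1r15a) and of 2.03% of 27025 genes. The CArG box, the site known to bind serum response factor, was in 2 of 25 (Egr2 and Zfp36) and in 1.81% of all. Maff was the only 1 of these 6 that did not fall (-0.68 (SE 0.57, adjusted p = 0.388)).

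Heat shock and chaperone genes split in direction. Of 13 tested, 7 rose and 3 fell, with a median change of 1.14. The stress-inducible Hsp70 genes fell, with Hspa1a at 122 and 81 FPKM in the normal libraries and 1.91, 1.65 and 7.54 FPKM after PH (-4.63 (SE 0.55, adjusted p = 0.00329)) and Hspa1b at 125 and 65.4 FPKM in the normal libraries and 2.15, 1.1 and 4.95 FPKM after PH (-4.75 (SE 0.50, adjusted p = 0.00243)). These neighbouring copies are nearly identical, so reads could be divided between them and their separate values are uncertain. The 7 rises were in hepatocyte-abundant genes: Hspe1, Hspd1, Hsph1, Hsp90aa1, Hsp90ab1, Hspa8 and Hspa5, by 1.14 to 2.26. The 3 falls were among the 4 members low in hepatocytes. Over all genes, 30.8% of hepatocyte-abundant genes rose and 12.2% fell, against 8.92% and 24.4% of those low in hepatocytes. The 7 rises were among 10 members above both endothelial sorts, where 32.8% of all genes rose. By the normal KC mean, 8 were above both sorts and 5 of these rose. Of all 4585 genes in a fit of that class alone, 953 rose and 366 fell, with 5 and 2 members. Hspe1, the mitochondrial co-chaperonin, was at 23.1 and 23.3 FPKM in the normal libraries and 132, 134 and 85.4 FPKM after PH. Hspd1, its chaperonin partner, which lies head to head with it in the genome, was at 15.4 and 14.4 FPKM in the normal libraries and 82.3, 83.2 and 58.2 FPKM after PH. All PH libraries were above both normal ones in both genes. Hspb1, a small heat shock protein, was the third fall, at 3.84 and 2.36 FPKM before and 1.51, 0.656 and 0.896 FPKM after PH, and was not above both endothelial sorts.

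The promoter of Hspe1 (RefSeq, GRCm38.p6, chr1:55087898-55088197, plus strand) is shown because it carries the heat shock element and its gene rose while the Hsp70 genes fell. The capitals mark 2 overlapping matches, 1 on each strand, to GAA, TTC and GAA with any 2 bases between neighbours.
Hspe1: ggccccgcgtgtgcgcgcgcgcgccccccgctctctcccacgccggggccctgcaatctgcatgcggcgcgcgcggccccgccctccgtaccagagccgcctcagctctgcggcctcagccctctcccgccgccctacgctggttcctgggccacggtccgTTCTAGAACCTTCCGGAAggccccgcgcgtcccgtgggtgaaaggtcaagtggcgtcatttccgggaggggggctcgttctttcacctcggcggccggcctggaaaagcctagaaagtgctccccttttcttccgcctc
The element was in the promoters of 3 of 9 list genes with a promoter in the table (Hsph1, Hspe1 and Hspd1) and of 0.662% of 27025 genes. These 3 rose, as did 7 of the 13 list genes tested. Hspe1 and Hspd1 lie head to head, so their windows may hold the same matches.

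Inflammatory cytokines and chemokines were mixed, with more falls than rises. Of 25 tested, 4 rose, 12 fell and 9 did not pass, with a median change of -1.14. Above both endothelial sorts were 22, of which 4 rose and 9 fell, and by the normal KC mean 24 were, of which 4 rose and 11 fell. Over all genes 16.7% rose and 20.1% fell, and of those above both sorts by the mean of both groups 32.8% rose and 4.78% fell. A fit of the class by the normal KC mean alone had 953 of 4585 genes higher and 366 lower, with 4 and 11 members. Il6, the cytokine that primes hepatocytes, was at 40.3 and 33.4 FPKM in the normal libraries and 2.8, 1.26 and 8.33 FPKM after PH, a change of -3.13 (SE 0.59, adjusted p = 0.0124), and Il1b, interleukin-1 beta, was at 698 and 503 FPKM in the normal libraries and 58, 67.1 and 97.1 FPKM after PH, a change of -3.02 (SE 0.26, adjusted p = 0.00169). In both genes all PH libraries lay far below normal, and normal LSEC held 0.0381 and 7.94 FPKM. Tnf, the other priming cytokine, was at 48.3 and 30.1 FPKM before and 12.3, 12.3 and 30.8 FPKM after PH, and its change of -1.14 (SE 0.45, adjusted p = 0.102) did not pass.

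Cxcl2, a neutrophil chemokine, was at 161 and 132 FPKM before and 4.31, 3.9 and 30.2 FPKM after PH (-3.98 (SE 0.84, adjusted p = 0.0177)), with library 3 between the other PH libraries and the normal ones. The hepatocyte-abundant Cxcl1, its relative, was at 63.4 and 40 FPKM in the normal libraries and listed at 0 in all 3 PH libraries. Hepatocyte-abundant genes are often listed at 0 in this table, so the change of Cxcl1 is uncertain. Il10, an anti-inflammatory cytokine, was at 39.4 and 36.5 FPKM before and 7.34, 7.34 and 9.41 FPKM after PH (-2.12 (SE 0.16, adjusted p = 0.00142)). The rises were Ccl6, Ccl7 (1.54), and the hepatocyte-abundant Ccl9 (3.66) and Il18 (1.26). Ccl7, a monocyte chemokine, was at 19.2 and 25.3 FPKM before and 65.3, 69.1 and 63.2 FPKM after PH. Ccl2, which acts on the same receptor, was at 67.1 and 83.9 FPKM before and 79.3, 95.9 and 130.1 FPKM after PH and did not pass (0.41, adjusted p = 0.23). The count of 12 falls was 7 without normal library 1 and 7 without normal library 2, and Cxcl2 then had adjusted p values of 0.133 and 0.11.

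Of 14 NF-kB subunit and feedback genes, 5 fell and 0 rose (limma, also 0 at an unadjusted p under 0.05), with a median change of -0.74. Over all genes tested 20.1% fell. Of the 9 members above both endothelial sorts 4 fell, against 4.78% of all such genes. Of the 5 others 1 fell, against 33.1%. The largest fall was in Nfkbiz, an inducible co-regulator, at 97 and 62 FPKM before and 12.6, 11.9 and 22 FPKM after PH (-2.30 (SE 0.33, adjusted p = 0.00541)). Library 3 lay above libraries 1 and 2 in 14 of 14 genes, and the count of falls became 1 without normal library 1, 2 without normal library 2, 3 without PH library 1 and 13 without PH library 3. Nfkbiz had an adjusted p of 0.0601 without normal library 1.

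Among 13 Toll-like receptor genes and adaptors, 2 rose and 4 fell, where 16.7% of all genes rose and 20.1% fell. The 12 above both endothelial sorts gave 2 rises and 3 falls, against 32.8% and 4.78% of all such genes. Tlr13, a sensor of bacterial ribosomal RNA, was at 34.8 and 29.4 FPKM before and 77.8, 87.5 and 108 FPKM after PH (1.47 (SE 0.18, adjusted p = 0.00343)), and Tlr1, a partner of Tlr2, at 21 and 19.3 FPKM before and 33, 36 and 38.7 FPKM after PH (0.80 (SE 0.13, adjusted p = 0.00759)). Cd14, the lipopolysaccharide co-receptor, was at 237 and 236 FPKM before and 46.7, 49 and 121 FPKM after PH (-1.84 (SE 0.43, adjusted p = 0.024)), and the nucleic acid sensors Tlr3, Tlr7 and Tlr9 fell by 0.81 to 1.35. Tlr4 itself was at 34.2 and 35.4 FPKM before and 38.7, 41.2 and 30.3 FPKM after PH and did not pass. The adjusted p of Cd14 was 0.148 without normal library 1, 0.138 without normal library 2, 0.0613 without PH library 1 and 0.0629 without PH library 2, that of Tlr1 was 0.0539 without normal library 1 and 0.0656 without normal library 2, and that of Tlr9 was 0.118 without normal library 1, 0.101 without normal library 2 and 0.0561 without PH library 1. The falls became 0 without normal library 1, 0 without normal library 2 and 2 without PH library 1, the rises 1 without normal library 1 and 1 without normal library 2.

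Interferon-response genes, which antiviral signalling induces, were lower. Of 20 tested, 13 fell and 0 rose, with a median change of -1.34 (limma, with 0 rises at an unadjusted p under 0.05), and library 3 was below libraries 1 and 2 in 18 of 20. Rsad2, the antiviral enzyme viperin, was at 42.3 and 45.9 FPKM in the normal libraries and 14.2, 12.4 and 8.47 FPKM after PH (-1.86 (SE 0.23, adjusted p = 0.0036)), and Ifit3, an inhibitor of viral translation, at 53.6 and 68.3 FPKM in the normal libraries and 19.7, 20.6 and 6.74 FPKM after PH (-2.02 (SE 0.48, adjusted p = 0.0255)). Both were above the endothelial sorts by the normal KC mean but not by the mean of both groups, and Ifit3 has a near-identical copy that could share its reads. By the normal KC mean, 16 of the 20 were above both sorts and 11 of these fell, against 9 and 4 by the mean of both groups. A fit of the class by the normal KC mean alone had 366 of 4585 genes lower, with 11 members. The 11 members not above by the mean of both groups gave 9 falls. Over all genes 20.1% fell, with 4.78% of those above by that mean and 33.1% of the others. Oas2, a sensor of double-stranded RNA, was at 93.9 and 43.2 FPKM before and 24.2, 24.2 and 11.3 FPKM after PH (-1.71 (SE 0.46, adjusted p = 0.0366)). Oas1a (0.20, adjusted p = 0.409) and Oasl1 (-0.01, adjusted p = 0.968) did not pass. The count of 13 was 6 without normal library 1 and 6 without normal library 2, and Ifit3 then had adjusted p values of 0.129 and 0.16.

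The promoters of Rsad2 and Ifit3 are shown because both genes fell and hold the interferon-stimulated response element, searched as GAAA and GAAA with any 2 bases between them. They are RefSeq windows of GRCm38.p6, chr12:26456403-26456702, minus strand for Rsad2 and chr19:34583279-34583578, plus strand for Ifit3, with matches on either strand in capitals.
Rsad2: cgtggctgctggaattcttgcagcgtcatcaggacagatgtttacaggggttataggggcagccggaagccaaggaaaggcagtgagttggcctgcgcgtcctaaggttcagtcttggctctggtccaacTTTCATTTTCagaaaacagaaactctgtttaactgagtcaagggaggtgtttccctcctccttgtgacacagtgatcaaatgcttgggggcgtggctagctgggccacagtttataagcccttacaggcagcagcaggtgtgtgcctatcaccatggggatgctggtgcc
Ifit3: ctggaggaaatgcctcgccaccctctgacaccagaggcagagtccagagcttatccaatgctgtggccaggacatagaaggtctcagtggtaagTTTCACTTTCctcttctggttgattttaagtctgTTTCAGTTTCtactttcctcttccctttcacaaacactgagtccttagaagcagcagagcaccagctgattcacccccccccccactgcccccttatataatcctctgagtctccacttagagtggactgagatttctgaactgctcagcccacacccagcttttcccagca
Of 15 interferon genes with a promoter in the table, 9 held the element (Ifit1, Ifit3, Isg15, Oas1a, Stat2, Rsad2, Gbp2, Gbp3 and Ddx58), as did 3.99% of 27025 genes. Ifit1, Isg15, Oas1a and Gbp3 hold it and did not pass the test.

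MHC class II genes, which present antigen to CD4 T cells, were mostly lower, and all 12 tested were above both endothelial sorts. Of the 12, 7 fell and 1 rose, with a median change of -0.89, where 4.78% of all genes above both sorts fell and 32.8% rose. Cd74, the invariant chain, was at 4072 and 4745 FPKM in the normal libraries and 589, 603 and 969.8 FPKM after PH, a change of -2.65 (SE 0.25, adjusted p = 0.00188). The beta chain gene H2-Eb1 was at 525 and 819 FPKM in the normal libraries and 92.8, 100.2 and 119 FPKM after PH, a change of -2.65 (SE 0.22, adjusted p = 0.00161). Ciita, the master regulator of this gene set, was at 13.9 and 14.7 FPKM in the normal libraries and 2.51, 2.22 and 1.71 FPKM after PH, a change of -2.29 (SE 0.19, adjusted p = 0.00155), and no PH library reached the normal range in any of the 3 genes. In a fit of all 20 groups 3 of the 12 genes fell.

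The peptide loading genes H2-DMa (-1.10) and H2-DMb1 (-0.68) also fell. The costimulatory gene Cd86 rose (0.70 (SE 0.12, adjusted p = 0.00963)), from 130.2 and 117 FPKM to 192, 220.4 and 193 FPKM, but not without normal library 1 or 2 (adjusted p of 0.0592 and 0.08), nor after scaling to the class median. Markers of dendritic cells, which also express class II genes, summed to 51.5 and 37.1 FPKM in the normal libraries and to between 10.9 and 20.3 FPKM after PH over 8 markers, with Flt3 and Xcr1 too low to be tested. The B cell gene Cd79b was lower in every PH library (adjusted p = 0.0528). Their part in the class II change was not tested.

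Growth factor genes gave 9 falls and 0 rises among 19 tested, with a median change of -0.41 (limma, with 0 rises at an unadjusted p under 0.05). All 9 were among the 14 members not above both endothelial sorts, a class in which 33.1% of all genes fell. They were Bmp2 and Bmp6 (bone morphogenetic proteins made by LSEC), Wnt2, Csf1, Hgf, Angpt2, Tgfa, Tgfb2 and Tnfsf12. None of the 5 growth factors above both sorts (Igf1, Hbegf, Pdgfa, Pdgfc and Gdf15) passed. Pdgfc, a platelet-derived growth factor, was the steadiest, at 26.2 and 25.7 FPKM before and 22.8, 24.2 and 23.8 FPKM after PH. Hgf, the main hepatocyte mitogen, was at 37.9 and 35.4 FPKM before and 19.4, 17.9 and 14 FPKM after PH, against 47 FPKM in normal LSEC. The 9 falls became 4 without normal library 2.

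Among 19 transcription factors of Kupffer cells and macrophages, Nr1h3 rose and 7 fell, of which 1 was above both endothelial sorts, or 2 by the normal KC mean. By the mean of both groups, 6 falls were among the 8 members not above both sorts, where 33.1% of all genes fell. A fit of the class by the normal KC mean alone had 366 of 4585 genes lower, with 2 members. The 1 above by the mean of both groups, Zeb2, a factor that maintains tissue macrophages, was at 75.8 and 74.2 FPKM before and 51.9, 51.3 and 41.5 FPKM after PH (-0.63 (SE 0.14, adjusted p = 0.0209)). Spi1, which encodes PU.1, was at 279 and 267 FPKM before and 355, 309.6 and 409 FPKM after PH (0.38 (SE 0.15, adjusted p = 0.0949)), and Spic, the factor of iron-recycling macrophages, at 115 and 88.5 FPKM before and 104, 129.6 and 209 FPKM after PH (0.48 (SE 0.32, adjusted p = 0.281)). The 7 falls became 4 without normal library 1, 3 without normal library 2 and 12 without PH library 3.

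**Figure D4:**
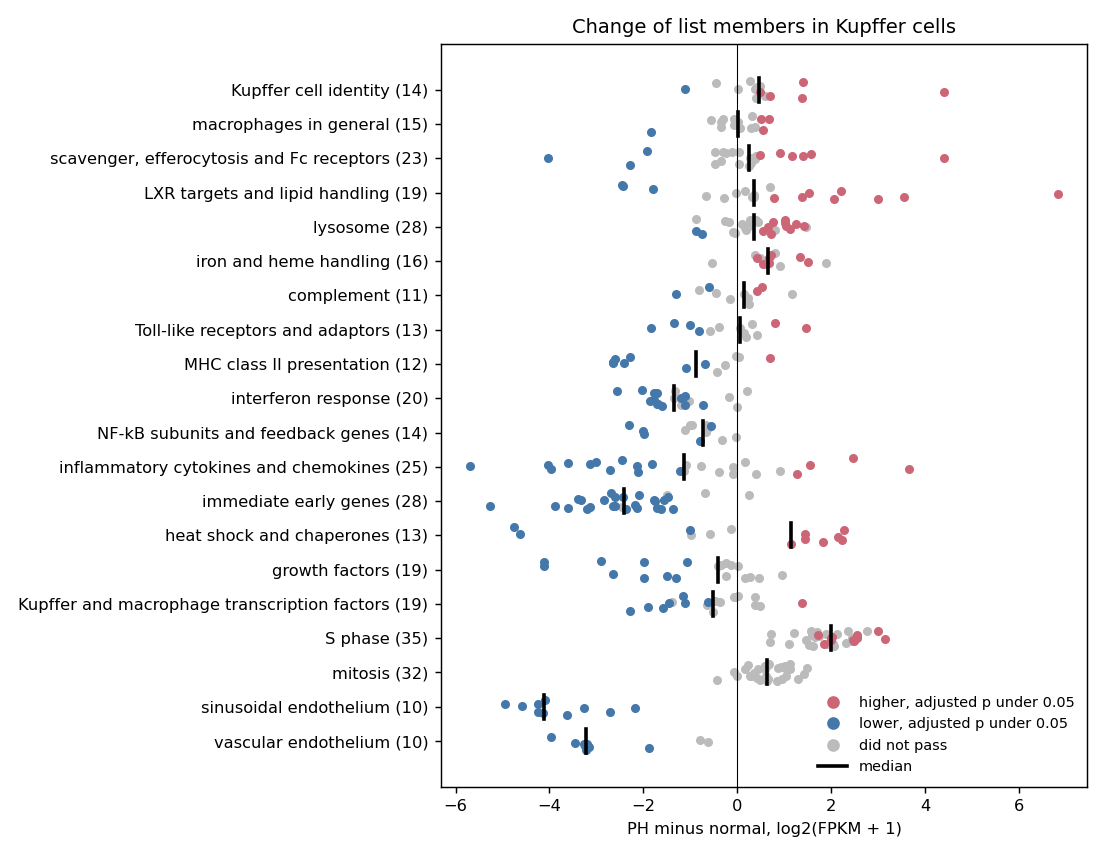
Change on the log2(FPKM + 1) scale (x axis) of each tested member of 20 gene lists (rows, with the number tested), coloured by whether it rose (red), fell (blue) or did not pass (grey), with the list median as a black bar. The medians of the immediate early, interferon, MHC class II and endothelial lists lie left of 0, and S phase genes lie to the right with a median of 1.99.

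Genes of DNA replication differed between the PH libraries in size and, for some genes, in direction against normal. Of 35 tested, 11 rose and 0 fell (limma, also 0 at an unadjusted p under 0.05), with a median change of 1.99. PH libraries 1 and 2 lay above both normal libraries in 35 of 35 genes and library 3 in 28 of 35, with library 3 below both normal libraries in the other 7. Library 3 lay below libraries 1 and 2 in 35 of 35. It had been set apart for its cell cycle genes, so the count without it is no independent test. The 11 rises were among 34 members above both endothelial sorts, where 32.8% of all genes rose, a class that a rise can itself place a gene in. By the normal KC mean, 28 members were above both sorts and 10 of these rose. In a fit of that class alone, where 953 of 4585 genes rose, 7 members rose. The median level, as log2(FPKM + 1), was 3.31 and 3.14 in the normal libraries, 5.84 and 5.89 in PH libraries 1 and 2, and 3.65 in library 3. Mcm2, a subunit of the replicative helicase, was at 12.2 and 12.2 FPKM in the normal libraries and 110.2, 109 and 36.1 FPKM after PH (2.54 (SE 0.51, adjusted p = 0.0153)). Pcna, the hepatocyte-abundant sliding clamp of DNA polymerase, was at 48.8 and 55.5 FPKM in the normal libraries and 288, 276 and 86.6 FPKM after PH (1.85 (SE 0.55, adjusted p = 0.0472)). Rrm2, which makes deoxynucleotides and is also hepatocyte-abundant, was at 8.21 and 7.66 FPKM in the normal libraries and 83.2, 78.9 and 2.94 FPKM after PH, with library 3 below the normal libraries (1.74 (SE 1.39, adjusted p = 0.37)). The count of 11 became 0 without normal library 1, 0 without normal library 2, 3 without PH library 1, 2 without PH library 2 and 35 without PH library 3. It was 24 under quantile normalization, 31 in a fit of all 20 groups and 3 with PH libraries 1 and 2 averaged, and Mcm2 had an adjusted p of 0.115 without normal library 1 and 0.108 without normal library 2.

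Mitosis genes also separated the PH libraries. Of 32 tested, 0 passed in either direction by limma, with 0 higher and 0 lower at an unadjusted p under 0.05. The groups overlapped for all 32, where 63.6% of all genes tested did not overlap. Library 3 lay below both normal libraries in 32 of 32 genes, and libraries 1 and 2 lay above both in 32 of 32. The median levels were 2.44 and 2.31 in the normal libraries, 3.94 and 4.06 in PH libraries 1 and 2, and 0.83 in library 3. Without library 3, 30 of 32 rose, but this and the change of Mki67 below rest on the values for which that library was set apart. Mki67, the proliferation marker Ki-67, was at 11.1 and 10.2 FPKM in the normal libraries and 27.5, 26.6 and 0.952 FPKM after PH, a change of -0.01 (SE 1.23, adjusted p = 0.995), or 1.27 without library 3 (adjusted p = 0.0005). Birc5, survivin, was at 7.8 and 10.3 FPKM in the normal libraries and 44.2, 38.2 and 1 FPKM after PH, and Pbk, a mitotic kinase, at 3.12 and 3.48 FPKM in the normal libraries and 26.2, 28.4 and 0.454 FPKM after PH.

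**Figure D5:**
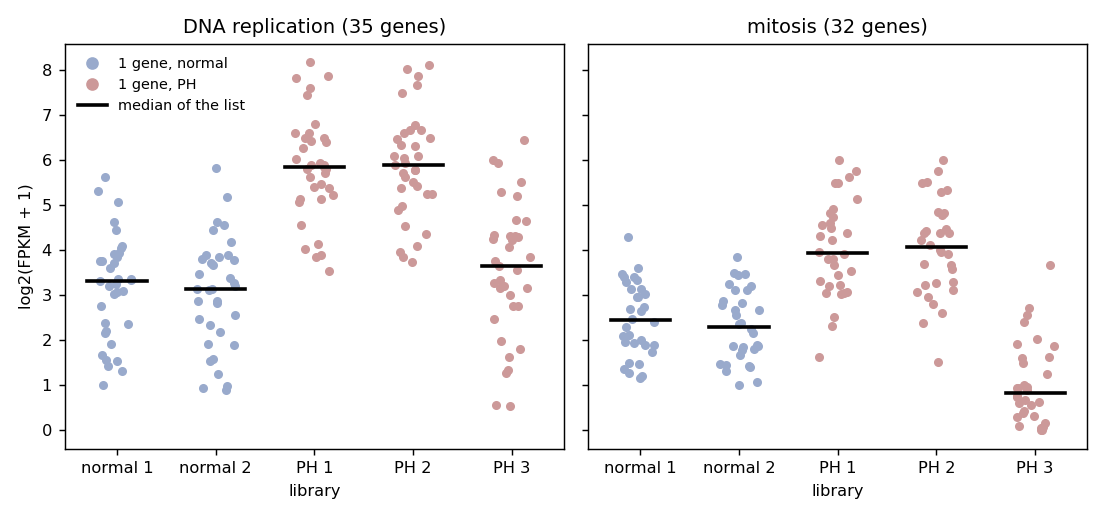
Level of each gene as log2(FPKM + 1) (y axis) in each KC library (x axis), for 35 DNA replication genes (left) and 32 mitosis genes (right), with the median as a black bar. PH libraries 1 and 2 lie highest in both lists, while PH library 3 lies near the normal libraries for replication and below them for mitosis.

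The promoter of Mcm3, a helicase subunit at 38.7 and 35.3 FPKM before and 175, 180 and 59.9 FPKM after PH (1.71 (SE 0.50, adjusted p = 0.0461)), is shown because the E2F site, known to control S phase genes, was found in this list. In the RefSeq window of GRCm38.p6 (chr1:20820263-20820562, minus strand) the match, which lies after the start site, is in capitals.
Mcm3: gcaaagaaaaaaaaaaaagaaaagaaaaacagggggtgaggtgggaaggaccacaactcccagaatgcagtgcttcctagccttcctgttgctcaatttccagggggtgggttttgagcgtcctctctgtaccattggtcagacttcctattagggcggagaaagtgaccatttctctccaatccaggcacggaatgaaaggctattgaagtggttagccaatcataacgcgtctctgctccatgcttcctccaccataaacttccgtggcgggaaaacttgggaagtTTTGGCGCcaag
TTTCGCGC or TTTGGCGC, on either strand, was in the promoters of 9 of 29 replication genes with a promoter in the table (Mcm3, Mcm5, Mcm6, Mcm7, Cdt1, Pola1, Rfc3, Lig1 and Uhrf1) and of 0.929% of 27025 genes.

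Regulators of the G1 phase gave 1 rise and 4 falls among 15 tested, where 16.7% of all genes rose and 20.1% fell. Cdk6, a G1 kinase, was at 4.32 and 2.78 FPKM before and 6.99, 6.85 and 6.54 FPKM after PH (0.80 (SE 0.20, adjusted p = 0.0315)), with an adjusted p of 0.0511 without normal library 1, 0.137 without normal library 2, 0.109 without PH library 1 and 0.0905 without PH library 2. The falls were Ccnd2, Cdkn1c, Cdkn1b and Cdkn1a, of which none was above both endothelial sorts, or 1 by the normal KC mean. A fit of the class by the normal KC mean alone had 366 of 4585 genes lower, with 1 member. Ccnd1, cyclin D1, was at 82.5 and 98.8 FPKM before and 99, 94.2 and 101 FPKM after PH and did not pass.

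Over all genes, those of the cell cycle included, the gap of library 3 to the nearer of the other PH libraries was at least 1 on the log2 scale, above them, in 139 genes and, below them, in 789 of 11835. The largest gaps upward among genes low in hepatocytes were in Chil3 (a chitinase-like protein of monocytes and neutrophils), Cxcl2, Clec4d, Cxcr4 and S100a9 (a calgranulin of neutrophils), and those downward were in 2810417H13Rik, Birc5, Pbk, Shcbp1 and Mki67, which are known from proliferating cells. Chil3 was at 0.505 and 1.17 FPKM before and 0.659, 0.781 and 16.3 FPKM after PH, and S100a9 at 10.6 and 31.4 FPKM before and 16, 17.7 and 79.2 FPKM after PH. Neutrophil markers summed over 12 genes to 66.4 and 87.8 FPKM in the normal libraries, 49.5 and 49.8 FPKM in PH libraries 1 and 2 and 193 FPKM in library 3, with Elane and Mpo near 0 throughout. Itgam, the integrin CD11b, was at 33.4 and 57.7 FPKM before and 21.1, 20.2 and 93.2 FPKM after PH. Their part in the difference of library 3 was not tested.

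The response of KC was also set against that of LSEC, the endothelium beside which these cells lie, by the difference of the PH-minus-normal changes in a fit of all 55 libraries. Of 12985 genes tested, 1534 differed (11.8%), with 389 above (3%) and 1145 below (8.82%) in KC. Without normal KC library 2 the count was 954, with 144 above and 810 below. The smallest adjusted p of all was that of S100a10 (-7.79 (SE 0.51, adjusted p = 4.28e-14)). The genes described next were chosen among those low in hepatocytes, which leaves S100a10 out. Havcr2 had a difference of 2.30 (SE 0.25, adjusted p = 2.44e-08), and in LSEC it was at 0.0844 and 0.0662 FPKM. The same pattern held for A530064D06Rik (2.47 (SE 0.29, adjusted p = 3.1e-08)) and Trem3, a receptor of myeloid cells (1.83 (SE 0.21, adjusted p = 4.2e-08)), both near 0 in LSEC, so these 3 differences restate the change in KC. Of the genes below, Slco3a1, an organic anion transporter, had a difference of -3.48 (SE 0.34, adjusted p = 7.51e-09), with 12 and 14.6 FPKM before and 2.41, 1.99 and 3.24 FPKM after PH in KC and means of 46.4 and 129.7 FPKM in normal and PH LSEC. Grb10, an adaptor of receptor kinases (-2.80 (SE 0.29, adjusted p = 2.44e-08)), and Meis2, a homeobox factor (-3.24 (SE 0.35, adjusted p = 2.44e-08)), were also higher in LSEC than in KC in both conditions. Among the 5528 genes above both endothelial sorts in this fit, 247 differed upward and 76 downward.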

How the data were processed

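The deposited table gives FPKM for each of 55 libraries, a unit the authors name in the title of the table. Per the submitters' processing notes, CASAVA 1.8.2, Bowtie 1.0.0 and the build mm9 were used, and the counting tool is not given in the sources used here. FPKM keep no read depth, so no counting interval is given. Each of 36141 rows is a RefSeq transcript. Where a symbol had several rows, that of highest mean across the series stood for it, leaving 24478 symbols. Starts in the table count from 0 and are printed counted from 1.

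Changes were tested on log2(FPKM + 1), the pseudocount being 1, by limma (version 3.58.1, under R 4.3.3) with trended robust variances, two-sided, at a Benjamini-Hochberg adjusted p under 0.05, for genes with at least 1 FPKM in 2 or more of the 5 KC libraries. The KC minus LSEC contrast used all 20 groups. Both fits were run on simulated data with planted changes and noise independent between libraries. That setting lacks the closeness of PH libraries 1 and 2 and the distance of library 3, so it cannot vouch for the p-values here. Replicate numbers were not used to pair the samples, since the labels name no shared animal. The genes named were the 12 largest rises and falls that passed with a change of at least 1 and without overlap of libraries. Predicted genes, pseudogenes and small RNAs were excluded from these. Added were the 2 largest rises and falls of each process list and the 3 smallest p in each direction for the contrast with LSEC. The 5 largest gaps of PH library 3 in each direction, for genes at 10 FPKM or more in a PH KC library, were also taken. All these choices were made among genes under 10 FPKM in both hepatocyte groups. Clec4f, Vsig4, Cd5l, Marco and Fosb were named in any case. Other list members are named as examples, chosen with their values seen. The gene lists (31) and this rule were written with earlier results of these data known. Promoters and motifs come from RefSeq, GRCm38.p6. Transcript lengths come from GENCODE, matched by RefSeq accession for 99.3% of the genes at 10 FPKM or more in all 5 KC libraries. Some list members are not reported here. Plots used matplotlib 3.10.9 under Python 3.11.15.

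Alternatives were a pseudocount of 0.1, no filter, quantile and upper-quartile scaling, genes low in hepatocytes, the mean over rows, a replicate block, all groups in a fit, and leaving out each library. Chosen after seeing the data were the restrictions to genes above the endothelial sorts, scaling over them, and averaging PH libraries 1 and 2.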

Additional observations from a re-analysis of the deposited data

Results flagged for a closer look

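The response to PH differed between KC and LSEC for 1534 genes, by the test of the difference of responses. Among the genes named from that test, the KC response exceeded the LSEC response by 2.30 for Havcr2, 2.47 for A530064D06Rik and 1.83 for Trem3 on the log2(FPKM + 1) scale. These 3 genes are near 0 in LSEC, so the differences restate the change in KC. It lay below the LSEC response for Slco3a1 (-3.48), Grb10 (-2.80) and Meis2 (-3.24), which are endothelial genes by level, and the LSEC markers in the KC sort fell from a median of 38.5% to 4.81% of their LSEC level. The part of that RNA in these differences was not tested.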

How the results depend on the processing

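The count of 4350 genes for PH against normal in KC stayed within 1.5 times under a pseudocount of 0.1, no filter, both global scalings, the mean over rows and a fit of all groups (3179 to 4556), while quantile normalization moved the split to 55.7% higher from 45.4%. It was 2422 over genes low in hepatocytes and ranged from 1471 to 6890 when each library was left out. It was 2665 with PH libraries 1 and 2 averaged, 1914 over genes above both endothelial sorts in KC (1319 by the normal KC mean alone) and 1231 with upper-quartile scaling over the former, restrictions that test fewer genes or samples. Replicate numbers were not used to pair the samples, since the labels name no shared animal. Deviations from the group means correlated by 0.132 for number 1 and by -0.158 for number 2. With 2 normal libraries, whose deviations mirror each other, these correlations cannot show whether the numbers pair the samples. With the replicate block the count was 6549, a fit in which PH library 3 has a number of its own and so drops out of the contrast.

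The count of 1534 for KC minus LSEC was 1450 with the replicate block, ranged from 954 to 1884 when each library was left out, and was 323 over genes above both endothelial sorts. Under quantile normalization 583 were above and 905 below (39.2% above against 25.4%). Of 1424 values for named genes under alternatives, 1290 kept the call (in 30 the sign changed between values that passed under neither setting), 99 lost the call and 32 gained it. In the other 3 the sign changed as a call was lost or gained, and none passed in both directions. Vsig4 lost its call under quantile normalization (-0.0189, adjusted p = 0.903). Mki67, which did not pass in the main fit, gained one with the replicate block (1.27, adjusted p = 0.00133) and without PH library 3 (1.27, adjusted p = 0.0005). Its change ranged from -0.663 to 1.27 when each library was left out. All 129 values for the 6 genes of the KC minus LSEC contrast kept direction and call. The unknown depth and the 2 normal libraries limit what small changes can show.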
